A study of Homo sapiens with 12 samples.

Results

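ATF4 and the genes of the integrated stress response were followed in tumor-associated macrophages (TAMs). The set held 35 of the 58735 genes counted, namely ATF4 itself, 3 of the kinases that act upstream of it, and genes known as ATF4 targets or partners. The rule lists these genes by name from what is known of the pathway and uses no measured value, but the list was drawn up with earlier results of these data known. Aminoacyl-tRNA synthetases, amino acid transporters and serine enzymes were kept out of the set and were counted as lists of their own. All 35 genes passed the filter on low counts, which left 16046 genes for testing.

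The integrated stress response starts when a kinase phosphorylates the translation initiation factor eIF2α, which lowers most protein synthesis but raises translation of the ATF4 mRNA. ATF4 is a basic leucine zipper transcription factor that pairs with C/EBP proteins and switches on genes for amino acid supply, redox balance and, when stress persists, cell death. In macrophages the response is known for linking amino acid shortage, mitochondrial stress and endoplasmic reticulum stress to cytokine production. Because ATF4 is controlled largely through its translation, the amount of its mRNA is not a measure of its activity.

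The TAMs came from THP-1, an established line of acute monocytic leukemia cells, differentiated with PMA and then cocultured for a single period with AsPC-1 pancreatic cancer cells across a porous membrane. MMP28, a secreted metalloproteinase, was overexpressed in the AsPC-1 cells and not in the TAMs that were sequenced. The 4 groups of 3 libraries each were control (AsPC-1 with empty vector), OE-MMP28, OE-MMP28 with an anti-IL-8 neutralizing antibody and OE-MMP28 with an anti-VEGFA neutralizing antibody. No antibody was named for the control and OE-MMP28 groups, each cell type was represented by 1 line, and nothing in the labels says that the 3 libraries of a group came from separate cultures, so p-values measure only the spread between these libraries.

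Library totals lay between 15852346 and 18701195 counts, and mitochondrial genes took 6.92% to 17.8% of them, with the highest share in anti-VEGFA library 2. Of the macrophage markers, CD14 held 11260 to 28850 counts and ITGAM 6266 to 10445, whereas CD68, a defining macrophage marker, held 0 to 5 counts, and whether reads of CD68 were lost in counting was not tested. EPCAM was at 0 in all 12 libraries, KRT8 held 1 to 7 counts and KRT19 0 to 4, and the 10 epithelial markers together summed to 3.23 to 6.5 CPM, the count scaled to library size. Replicate libraries differed most in the anti-VEGFA group, where library 2 stood apart from the other two with a chi-square per gene of 98.6 and 54.6. In the OE-MMP28 group libraries 2 and 3 lay farthest from each other, at 51.5. Counts of calls that move with a single library are given with and without it.

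RefSeq promoter windows, from 250 bases before to 50 bases after an annotated start on GRCh38.p14, were found for 30 of the 35 genes. None was matched for NUPR1, GPT2, EIF4EBP1, PYCR1 and EIF2AK1. The C/EBP-ATF response element that ATF4 dimers are known to bind was searched as TGATGNAA on both strands. It occurred in 8 of the 30 genes, or 26.7%, namely ATF3, CHAC1, ASNS, CEBPG, PPP1R15B, HERPUD1, JDP2 and IFRD1, and in 4.46% of all 27305 genes with a window. Genes with several annotated starts have more windows to match, and they made up 33.3% of the members and 19% of all genes. Among genes with 1 window, 3 of 20 members held the motif, compared with 3.85% of 22114 genes. The cAMP response element TGACGTCA was in 2 genes, PPP1R15A and IFRD1, compared with 2.25% of all genes, and the endoplasmic reticulum stress element was in none of the 30, compared with 0.0916%. A match of letters is not a binding site, and the absence of one refers to this window alone.

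The windows of the 4 genes that both changed between groups and held the C/EBP-ATF letters are shown here 5′ to 3′ on the strand of the gene, with the motif in capitals, because they are the sequences on which the changes described next can be set beside an ATF4-type motif. All 4 lie on the plus strand of GRCh38.p14. The CHAC1 window, chr15:40953221-40953520, held the motif on the minus strand, so it reads as its reverse complement, with its first base 209 bases before the start. The JDP2 window, chr14:75427772-75428071, belonged to 1 of 3 annotated starts and held the motif 16 bases before it. The ATF3 window, chr1:212565157-212565456, belonged to 1 of 2 starts and held the motif 191 bases before it. The IFRD1 window, chr7:112451808-112452107, belonged to 1 of 4 starts and held the motif at base 19 after it.
CHAC1: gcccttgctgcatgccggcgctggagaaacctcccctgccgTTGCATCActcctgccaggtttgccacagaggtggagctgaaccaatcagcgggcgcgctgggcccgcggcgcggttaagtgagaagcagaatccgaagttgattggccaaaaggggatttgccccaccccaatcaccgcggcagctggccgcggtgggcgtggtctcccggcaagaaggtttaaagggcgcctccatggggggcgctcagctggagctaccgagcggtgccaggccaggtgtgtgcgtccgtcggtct
JDP2: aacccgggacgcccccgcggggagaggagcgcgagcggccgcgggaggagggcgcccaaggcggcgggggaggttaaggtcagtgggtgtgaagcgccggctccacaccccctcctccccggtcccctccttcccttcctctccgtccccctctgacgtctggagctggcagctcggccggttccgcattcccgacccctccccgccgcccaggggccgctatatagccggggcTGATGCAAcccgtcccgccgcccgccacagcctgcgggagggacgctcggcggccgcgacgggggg
ATF3: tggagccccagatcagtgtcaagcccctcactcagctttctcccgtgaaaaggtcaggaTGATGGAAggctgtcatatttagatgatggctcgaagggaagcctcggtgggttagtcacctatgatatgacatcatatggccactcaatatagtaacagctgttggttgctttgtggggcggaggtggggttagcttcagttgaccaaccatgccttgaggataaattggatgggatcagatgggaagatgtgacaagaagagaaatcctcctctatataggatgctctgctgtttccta
IFRD1: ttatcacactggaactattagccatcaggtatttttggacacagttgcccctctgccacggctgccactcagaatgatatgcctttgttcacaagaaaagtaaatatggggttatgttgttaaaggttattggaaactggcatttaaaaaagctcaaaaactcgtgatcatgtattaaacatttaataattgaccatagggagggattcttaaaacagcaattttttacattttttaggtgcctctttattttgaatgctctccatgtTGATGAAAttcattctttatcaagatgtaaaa

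Expression of the set differed most between control and anti-IL-8 TAMs. Of the 35 genes, 15 passed the test with anti-IL-8 against control (edgeR quasi-likelihood test, Benjamini-Hochberg adjusted p under 0.05 over all 16046 genes), or 42.9%, beside 20.7% of all genes tested. Of these 13 were higher, beside 9.77% of all genes, and 2 were lower, beside 10.9%. The median log2 fold change of the 35 genes was 0.42, beside -0.02 for all genes. In the OE-MMP28 TAMs 3 genes passed against control, beside 3.16% of all genes. VLDLR and STC2 were higher, beside 0.523%, and ATF3 was lower, beside 2.64%, with a median of 0.14 for the 35 genes beside 0.02. In the anti-VEGFA TAMs 3 genes passed against control, beside 11% of all genes. STC2 and JDP2 were higher, beside 5.6%, and ATF3 was lower, beside 5.37%, with a median of 0.19 beside 0.0013. These 3 comparisons share the control libraries. Every gene called in another comparison was among the 15 called with anti-IL-8 against control, and the other 20 passed in none. The share of all genes called in at least 1 comparison was not counted. In bulk RNA, a change in the number of cells that express a gene and a change in the amount per cell cannot be told apart.

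The libraries of both groups did not overlap for 9 of the 35 genes between OE-MMP28 and control, beside 21.3% of all genes, for 26 between anti-IL-8 and control, beside 47.8%, and for 17 between anti-VEGFA and control, beside 34.3%. Between an antibody and OE-MMP28 they did not overlap for 17 genes with anti-IL-8, beside 29% of all genes, and for 2 with anti-VEGFA, beside 18.1%. Between the antibodies they did not overlap for 14 genes, beside 20.9%. At an unadjusted p under 0.05, the threshold of the study's methods, the edgeR test passed 9 genes for OE-MMP28, 24 for anti-IL-8 and 12 for anti-VEGFA against control, beside 14.5%, 35.9% and 27% of all genes.

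**Figure D1:**
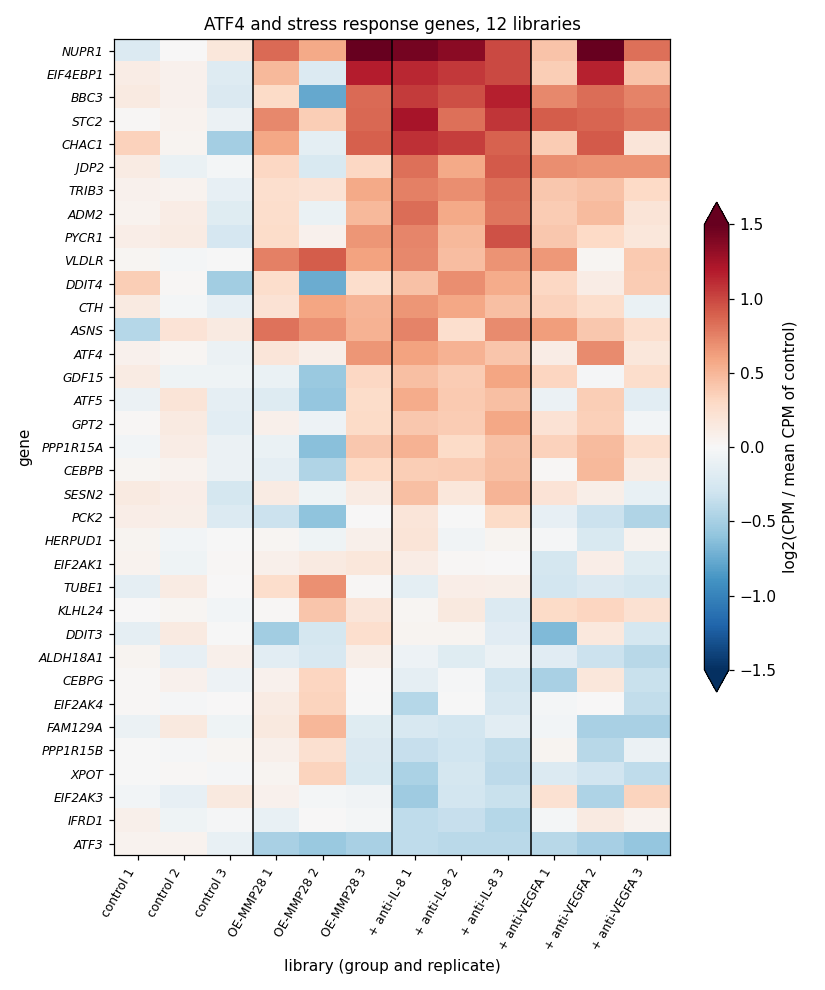
Each row is a gene and each column a library, and color gives log2 of CPM over the mean CPM of the 3 control libraries, with genes sorted by their fold change between anti-IL-8 and control and the scale cut at 1.5 in either direction. The upper 20 genes are above control in most anti-IL-8 libraries, OE-MMP28 library 2 is bluer and library 3 redder than library 1, and ATF3 is below control in all 9 treated libraries.

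Within groups the libraries moved with some of these genes together. OE-MMP28 library 3 was the highest of its group for 22 of the 35 genes, compared with 38.7% of all genes, and OE-MMP28 library 2 was the lowest for 21, compared with 39.5%. The median log2 difference of the 35 genes from the control mean was 0.12, -0.03 and 0.29 in the 3 OE-MMP28 libraries, 0.45, 0.29 and 0.45 in the anti-IL-8 libraries and 0.22, 0.17 and 0.12 in the anti-VEGFA libraries. The anti-IL-8 libraries lay above every other library on this measure, with OE-MMP28 library 3 just under the lowest of them. The summed level of the 10 macrophage markers was 2133 to 2366 CPM in control and 2277 to 3258 CPM in OE-MMP28. It was 2951 to 3419 CPM in the anti-IL-8 group and 2636 to 3150 CPM in the anti-VEGFA group. CD14 held the most counts of the 10 markers, so the sum does not stand for the whole list. Of the 9 tested markers, 5 had fitted values above control in OE-MMP28, 6 in the anti-IL-8 group and 3 in the anti-VEGFA group. Their median log2 fold changes against control were 0.08, 0.12 and -0.17 in that order. In OE-MMP28 against control only CD14 passed among these 9, with a log2 fold change of 0.80 ± 0.19 (edgeR adjusted p = 0.0272). Of the 3 tested epithelial markers 1 passed and was lower, MUC1, with -0.96 ± 0.25 (adjusted p = 0.0341). The epithelial markers summed to 4.79 to 6.5 CPM in control, 3.23 to 3.76 CPM in OE-MMP28, 3.59 to 5.05 CPM with anti-IL-8 and 5.08 to 5.87 CPM with anti-VEGFA. Their part in the results was not tested.

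ATF4, the transcription factor at the center of the response (chr22:39519695-39522685, plus strand, GRCh38), was among the most abundant of the 35 genes at a mean of 358 FPKM, below GDF15 at 946 FPKM and CEBPB at 516 FPKM. ATF4 was at 762, 745 and 688 CPM in the control libraries and at 827, 778 and 1157 CPM in the OE-MMP28 libraries. It was at 1111, 1052 and 976 CPM with anti-IL-8 and at 790, 1192 and 821 CPM with anti-VEGFA. Every library cocultured with OE-MMP28 cells, with or without an antibody, was above every control library, and a single high library set the upper end of the OE-MMP28 and the anti-VEGFA groups. With anti-IL-8, ATF4 was higher than in control, with a log2 fold change of 0.52 ± 0.17 (SE; edgeR adjusted p = 0.0406). This call was kept in 5 of the 12 fits that leave out 1 library each, and its adjusted p reached 0.137 among them. It was lost without any 1 of the 3 control libraries, any 1 of the 3 anti-IL-8 libraries, or OE-MMP28 library 1. It also ended on FPKM values (limma adjusted p = 0.0676 and 0.0683) and with the replicate number as a block (adjusted p = 0.0511). Against control, the log2 fold change of ATF4 was 0.33 ± 0.17 in OE-MMP28 and 0.35 ± 0.17 in the anti-VEGFA group (adjusted p = 0.397 and 0.194). Against OE-MMP28, it was 0.18 with anti-IL-8 (95% interval -0.15 to 0.52) and 0.02 with anti-VEGFA (-0.31 to 0.36). Its processed pseudogenes held at most 15 counts, compared with at least 11618 for ATF4.

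The eIF2α kinases in the set are EIF2AK1 (HRI), which senses heme and mitochondrial stress, EIF2AK3 (PERK), which senses unfolded proteins in the endoplasmic reticulum, and EIF2AK4 (GCN2), which senses uncharged tRNA. None of the 3 passed the test in any of the 6 comparisons. EIF2AK1 was at 105, 97.2 and 102 CPM in control, 107, 112 and 114 CPM in OE-MMP28, 109, 102 and 102 CPM with anti-IL-8 and 84.8, 109 and 89.2 CPM with anti-VEGFA. EIF2AK3 was at 22.1, 20.7 and 25.0 CPM in control, 23.6, 22.1 and 21.8 CPM in OE-MMP28, 15.6, 18.6 and 17.9 CPM with anti-IL-8 and 26.4, 16.4 and 28.5 CPM with anti-VEGFA. EIF2AK4 was at 38.9, 38.0 and 38.5 CPM in control, 41.9, 48.4 and 38.4 CPM in OE-MMP28, 28.6, 38.4 and 32.7 CPM with anti-IL-8 and 37.8, 38.7 and 29.8 CPM with anti-VEGFA. For EIF2AK3 the anti-IL-8 libraries lay below all control and OE-MMP28 libraries, with a log2 fold change of -0.38 against control (adjusted p = 0.124), and overlapped the anti-VEGFA libraries.

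The remaining eIF2α kinase, EIF2AK2 (PKR), is activated by double-stranded RNA and is itself an interferon-stimulated gene. It was not a member and was examined because it completes the family. EIF2AK2 was at 231, 245 and 190 CPM in control, 60.9, 61.7 and 41.5 CPM in OE-MMP28, 35.1, 42.6 and 35.2 CPM with anti-IL-8 and 69.7, 56.0 and 51.6 CPM with anti-VEGFA. All 9 libraries cocultured with OE-MMP28 cells were far below all 3 control libraries. Compared with control, the log2 fold change was -2.02 ± 0.17 in OE-MMP28, -2.56 ± 0.17 for anti-IL-8 and -1.91 ± 0.17 for anti-VEGFA (edgeR adjusted p = 2.21e-07, 1.15e-08 and 4.59e-07). The antibodies did not bring a change from OE-MMP28 past the test, with log2 fold changes of -0.54 for anti-IL-8 and 0.11 for anti-VEGFA (adjusted p = 0.0669 and 0.743).

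Among the basic leucine zipper partners and repressors, ATF3 fell and JDP2 rose, and both are ATF4 targets that bind cAMP response elements. ATF3, a stress-induced repressor of inflammatory genes, was at 692, 692 and 621 CPM in control and at 476, 455 and 477 CPM in OE-MMP28. It was at 514, 505 and 505 CPM with anti-IL-8 and at 502, 475 and 447 CPM with anti-VEGFA. All 3 control libraries were above the other 9. The log2 fold change against control was -0.51 ± 0.11 in OE-MMP28, -0.40 ± 0.11 for anti-IL-8 and -0.49 ± 0.11 for anti-VEGFA (edgeR adjusted p = 0.015, 0.0224 and 0.0104). Leaving out control library 1 or 2 ended all 3 calls. The OE-MMP28 call also ended without OE-MMP28 library 1, and the anti-IL-8 call without any 1 of its 3 libraries, with adjusted p up to 0.1, 0.0992 and 0.0623 in the order of the groups above. With no filter on low counts the anti-IL-8 call was lost too (edgeR adjusted p = 0.0575). JDP2, which dimerizes with ATF3 and Jun proteins, was at 11.9, 10.2 and 10.7 CPM in control, 13.5, 9.36 and 13.6 CPM in OE-MMP28, 19.4, 16.2 and 20.7 CPM with anti-IL-8 and 17.7, 17.4 and 17.4 CPM with anti-VEGFA. Both antibody groups lay above every control and OE-MMP28 library. Against control JDP2 rose by a log2 fold change of 0.77 ± 0.16 for anti-IL-8 and 0.67 ± 0.16 for anti-VEGFA (adjusted p = 0.00385 and 0.0123). The second of these calls was lost without control library 2 (adjusted p = 0.0733). JDP2 also had the lowest adjusted p of the 35 genes for anti-IL-8 against OE-MMP28, 0.0627, with a log2 fold change of 0.62.

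TRIB3, a pseudokinase that ATF4 induces and that feeds back on it, rose with anti-IL-8. It was at 69.8, 69.2 and 61.3 CPM in control, 79.3, 77.7 and 99.4 CPM in OE-MMP28, 112, 108 and 118 CPM with anti-IL-8 and 88.1, 90.4 and 82.0 CPM with anti-VEGFA. The anti-IL-8 libraries were above all others, and the control libraries below all others. The log2 fold change against control was 0.76 ± 0.12 with anti-IL-8 (edgeR adjusted p = 0.000585) and was called in each of the 12 fits without 1 library. It was 0.35 in OE-MMP28 and 0.38 with anti-VEGFA (adjusted p = 0.154 and 0.0551). DDIT3 (CHOP), the proapoptotic partner of C/EBP proteins, did not pass in any comparison and stood at a mean of 70.1 ± 6.37 CPM (SD, n = 3) in control, 63.6 ± 17.9 CPM in OE-MMP28, 69.0 ± 5.96 CPM with anti-IL-8 and 60.2 ± 17.0 CPM with anti-VEGFA. DDIT3 shares 27.2% of its exon bases with MARS on the opposite strand, and the library kit did not mark strand. For the same reason reads in shared bases cannot be told apart for ATF5, which shares 21.2% of its exon bases with NUP62, and VLDLR, which shares 7.9% with VLDLR-AS1. Opposite-strand genes also cover exon bases of DDIT4 (41.2%, DDIT4-AS1), PYCR1 (15.6%), EIF2AK3 (14.4%), CEBPB (11.8%) and EIF2AK1 (9.59%). DDIT4-AS1 held 0 counts in every library, and whether reads in shared bases were dropped in counting was not tested. ATF5, CEBPB and CEBPG, the other leucine zipper factors, were not called either. ATF5 and CEBPB had every anti-IL-8 library above every control library, with log2 fold changes of 0.47 and 0.40 (adjusted p = 0.0761 and 0.0971).

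**Figure D2:**
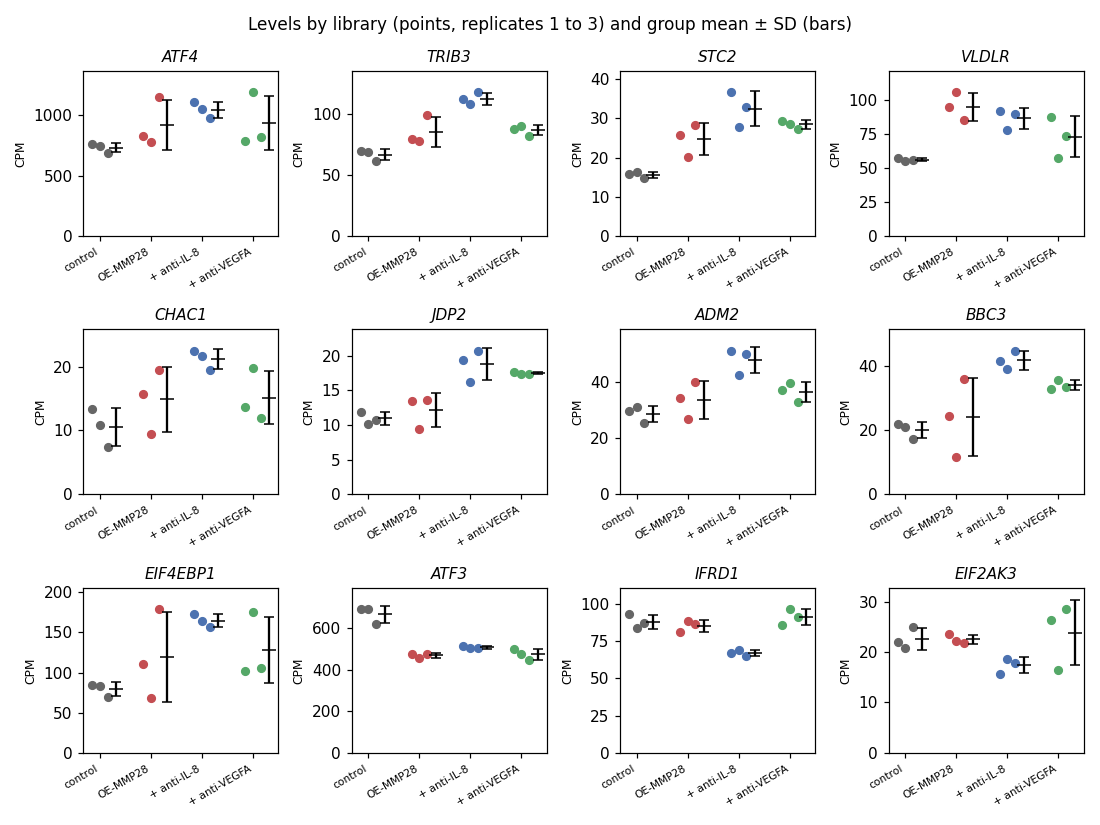
Points are the CPM of each library for 12 genes (libraries 1 to 3 from left to right within a group), and the bar beside them is the group mean ± SD (n = 3), on axes that start at 0. TRIB3 and ADM2 are highest with anti-IL-8, ATF3 is highest in control, IFRD1 is lowest with anti-IL-8, and the OE-MMP28 libraries spread widely for ATF4, BBC3 and EIF4EBP1.

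The genes that return translation to its resting state or hold it back gave 1 call. It was for anti-IL-8 against control, where 20.7% of all genes were called. PPP1R15A (GADD34) is the inducible regulatory subunit of the phosphatase that takes the phosphate off eIF2α. PPP1R15A was at a mean of 374 ± 27.3 CPM (SD, n = 3) in control and 500 ± 40.5 CPM with anti-IL-8 (log2 fold change 0.42, edgeR adjusted p = 0.114). PPP1R15B, the constitutive counterpart, was at 246 ± 4.18 CPM in control and 195 ± 4.39 CPM with anti-IL-8 (log2 fold change -0.34, adjusted p = 0.0865). Neither passed in any of the 6 comparisons. EIF4EBP1, the ATF4 target that binds the cap-binding protein eIF4E, was at 85.1, 82.9 and 69.2 CPM in control, 111, 68.7 and 179 CPM in OE-MMP28, 173, 165 and 157 CPM with anti-IL-8 and 102, 176 and 106 CPM with anti-VEGFA. Its OE-MMP28 libraries reached from below the control libraries to above the anti-IL-8 libraries. It rose with anti-IL-8 against control, with a log2 fold change of 1.06 ± 0.25 (edgeR adjusted p = 0.00906), a call that was lost without control library 3 (adjusted p = 0.051).

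Among the genes of amino acid and glutathione metabolism, counted with the leucine sensor SESN2, 4 of 8 rose with anti-IL-8, beside 9.77% of all genes. None was called in the other comparisons of the main fit, beside 3.16% of all genes in OE-MMP28 and 11% with anti-VEGFA against control. CHAC1, an enzyme that degrades glutathione, was at 13.3, 10.8 and 7.34 CPM in control, 15.7, 9.47 and 19.5 CPM in OE-MMP28, 22.5, 21.6 and 19.4 CPM with anti-IL-8 and 13.7, 19.8 and 11.9 CPM with anti-VEGFA. Between anti-IL-8 and control the log2 fold change of CHAC1 was 1.00 ± 0.25 (edgeR adjusted p = 0.0103), and it missed the threshold without control library 3 (adjusted p = 0.0621). PYCR1, the last enzyme of proline synthesis, was at 11.7, 12.0 and 9.24 CPM in control, 13.2, 11.5 and 17.4 CPM in OE-MMP28, 18.3, 15.4 and 21.3 CPM with anti-IL-8 and 14.6, 13.5 and 12.3 CPM with anti-VEGFA. CTH, which makes cysteine from cystathionine, was at 10.8, 9.65 and 9.00 CPM in control, 11.4, 14.8 and 14 CPM in OE-MMP28, 15.5, 14.7 and 13.4 CPM with anti-IL-8 and 12.5, 11.8 and 9.17 CPM with anti-VEGFA. GPT2, a mitochondrial alanine transaminase, was at 55.3, 59.9 and 48.9 CPM in control, 57.7, 51.9 and 66.6 CPM in OE-MMP28, 72.2, 71.3 and 81.8 CPM with anti-IL-8 and 63.4, 70.2 and 53.4 CPM with anti-VEGFA. For all 4 genes the anti-IL-8 libraries lay above the control libraries, while the OE-MMP28 and anti-VEGFA libraries overlapped the control libraries for CHAC1 and GPT2. Between anti-IL-8 and control the log2 fold changes were 0.73 ± 0.18 for PYCR1, 0.56 ± 0.16 for CTH and 0.46 ± 0.14 for GPT2 (adjusted p = 0.00902, 0.0214 and 0.0269). These 3 calls were kept in 10, 9 and 7 of the 12 fits without 1 library, with adjusted p up to 0.0562, 0.0929 and 0.126. All 3 ended without control library 3. That for PYCR1 also ended without anti-IL-8 library 3, that for CTH without control library 2 or anti-IL-8 library 1, and that for GPT2 without control library 1 or 2 or anti-IL-8 library 1 or 3. Scaling by library totals in place of TMM also ended the calls for CTH and GPT2 (edgeR adjusted p = 0.051 and 0.0582).

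ASNS, asparagine synthetase, is a classical ATF4 target, but it was the least abundant of the 35 genes at a mean of 0.408 FPKM. ASNS held 1.35 ± 0.301 CPM (SD, n = 3) in control, 2.15 ± 0.214 CPM in OE-MMP28, 2.02 ± 0.363 CPM with anti-IL-8 and 1.82 ± 0.242 CPM with anti-VEGFA, on as few as 17 counts in a library. Every treated library was above every control library, and the log2 fold change in OE-MMP28 was 0.63 ± 0.28 (adjusted p = 0.263). Its level is uncertain, because 44.6% of its exon bases are shared with AC079781.5 on the same strand, which held 31 to 64 counts, and the pseudogene ASNSP3 held up to 27. PCK2, the mitochondrial enzyme that makes phosphoenolpyruvate, stood at means from 63.6 CPM with anti-VEGFA to 87.3 CPM with anti-IL-8. ALDH18A1, the first enzyme of proline synthesis, stood at 10.7 to 13.2 CPM. SESN2, a leucine sensor that restrains mTORC1, was at 62.1 ± 9.17 CPM in control and 81.2 ± 9.67 CPM with anti-IL-8 (log2 fold change 0.38, adjusted p = 0.0569). None of these 4 was called in any comparison of the main fit.

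Among the genes for secreted and surface proteins, STC2 and VLDLR rose in OE-MMP28 TAMs and STC2, VLDLR and ADM2 with anti-IL-8. STC2, a secreted glycoprotein induced by ATF4, was at 15.9, 16.2 and 14.7 CPM in control, 25.7, 20.2 and 28.4 CPM in OE-MMP28, 36.7, 27.8 and 32.9 CPM with anti-IL-8 and 29.3, 28.7 and 27.3 CPM with anti-VEGFA. All 9 libraries cocultured with OE-MMP28 cells were above all control libraries. STC2 rose against control by a log2 fold change of 0.66 ± 0.15 in OE-MMP28, 1.05 ± 0.15 for anti-IL-8 and 0.86 ± 0.15 for anti-VEGFA (edgeR adjusted p = 0.015, 0.00014 and 0.00113). The calls in both antibody groups were kept in all 12 fits without 1 library. The call in OE-MMP28 was kept in 7 and was lost without control library 1, 2 or 3 or OE-MMP28 library 1 or 3, with adjusted p up to 0.0877. VLDLR, a lipoprotein receptor raised by the PERK and ATF4 branch, was at 57.2, 55 and 56 CPM in control, 94.6, 105 and 85.0 CPM in OE-MMP28, 92.0, 77.5 and 89.3 CPM with anti-IL-8 and 87.7, 57.3 and 73.4 CPM with anti-VEGFA. Its OE-MMP28 and anti-IL-8 libraries were all above control, while anti-VEGFA library 2 stood barely above the highest control library. VLDLR rose by a log2 fold change of 0.76 ± 0.14 in OE-MMP28 and 0.62 ± 0.14 for anti-IL-8 (adjusted p = 0.00396 and 0.00795), and both calls were kept in all 12 fits. With anti-VEGFA its log2 fold change was 0.38 ± 0.14 (adjusted p = 0.101).

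ADM2, a secreted peptide of the calcitonin family, was at 29.6, 31.0 and 25.3 CPM in control, 34.5, 26.7 and 40.1 CPM in OE-MMP28, 51.2, 42.5 and 50 CPM with anti-IL-8 and 37.2, 39.7 and 32.8 CPM with anti-VEGFA. The anti-IL-8 libraries were the 3 highest of the 12. ADM2 rose against control by a log2 fold change of 0.74 ± 0.15 (edgeR adjusted p = 0.00379) and was called in all 12 fits without 1 library. GDF15, a stress cytokine of the TGF-β family and the most abundant of the 35 genes, was at a mean of 1779 ± 137 CPM (SD, n = 3) in control, 1689 ± 495 CPM in OE-MMP28, 2470.0 ± 187 CPM with anti-IL-8 and 2038 ± 246 CPM with anti-VEGFA. The anti-IL-8 libraries of GDF15 were above every other library, but its log2 fold change of 0.47 against control did not pass (adjusted p = 0.0651).

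Among the genes linked to cell death and stress survival, BBC3 and NUPR1 rose with anti-IL-8. BBC3 (PUMA), a BH3-only activator of apoptosis that p53 also induces, was at 22.0, 20.9 and 17.3 CPM in control, 24.6, 11.8 and 36.2 CPM in OE-MMP28, 41.6, 39.1 and 44.9 CPM with anti-IL-8 and 33.0, 35.9 and 33.7 CPM with anti-VEGFA. Both antibody groups were above control, and the OE-MMP28 libraries spread from the lowest of all 12 to near the anti-IL-8 range. BBC3 rose with anti-IL-8 by a log2 fold change of 1.06 ± 0.25 against control (edgeR adjusted p = 0.00844), called in all 12 fits without 1 library, and its log2 fold change with anti-VEGFA was 0.76 ± 0.25 (adjusted p = 0.0555). NUPR1, a small chromatin protein induced by stress, was scarce, at 1.65, 1.91 and 2.13 CPM in control, 3.41, 2.81 and 6.99 CPM in OE-MMP28, 5.15, 4.86 and 3.76 CPM with anti-IL-8 and 2.55, 6.10 and 3.36 CPM with anti-VEGFA. All 9 libraries cocultured with OE-MMP28 cells were above control for NUPR1. Its log2 fold change against control was 1.23 ± 0.35 with anti-IL-8 (adjusted p = 0.0189), 1.16 ± 0.35 in OE-MMP28 and 1.03 ± 0.36 with anti-VEGFA (adjusted p = 0.0774 and 0.0607). The anti-IL-8 call was lost without control library 1, 2 or 3 or anti-IL-8 library 1, with adjusted p up to 0.0661. It also ended on FPKM values with a pseudocount of 1 (limma adjusted p = 0.0598). DDIT4 (REDD1), an inhibitor of mTORC1, had a log2 fold change of 0.56 ± 0.23 with anti-IL-8 against control (adjusted p = 0.0851).

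IFRD1, a transcriptional coregulator, was the other gene that fell with anti-IL-8. It was at 92.8, 83.6 and 86.8 CPM in control, 80.9, 88.4 and 86.1 CPM in OE-MMP28, 67.1, 68.8 and 65.0 CPM with anti-IL-8 and 85.7, 96.3 and 91.1 CPM with anti-VEGFA. The anti-IL-8 libraries were below all others, and the other groups overlapped. The log2 fold change against control was -0.39 ± 0.11 (edgeR adjusted p = 0.0205) and was called in 7 of 12 fits without 1 library, with adjusted p up to 0.103. The call ended without control library 1, 2 or 3 or anti-IL-8 library 1 or 3, and also with no filter on low counts (edgeR adjusted p = 0.0707). For IFRD1 the log2 fold change between anti-VEGFA and anti-IL-8 was 0.44 ± 0.11 (adjusted p = 0.0915). XPOT, which exports tRNA from the nucleus, stood at 266 ± 4.09 CPM (SD, n = 3) in control and 206 ± 14.5 CPM with anti-IL-8 (log2 fold change -0.37, adjusted p = 0.0581). HERPUD1, a factor of endoplasmic reticulum degradation, KLHL24, TUBE1 and FAM129A were not called in any comparison of the main fit. HERPUD1 differed least between groups, at means from 215 to 235 CPM.

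**Figure D3:**
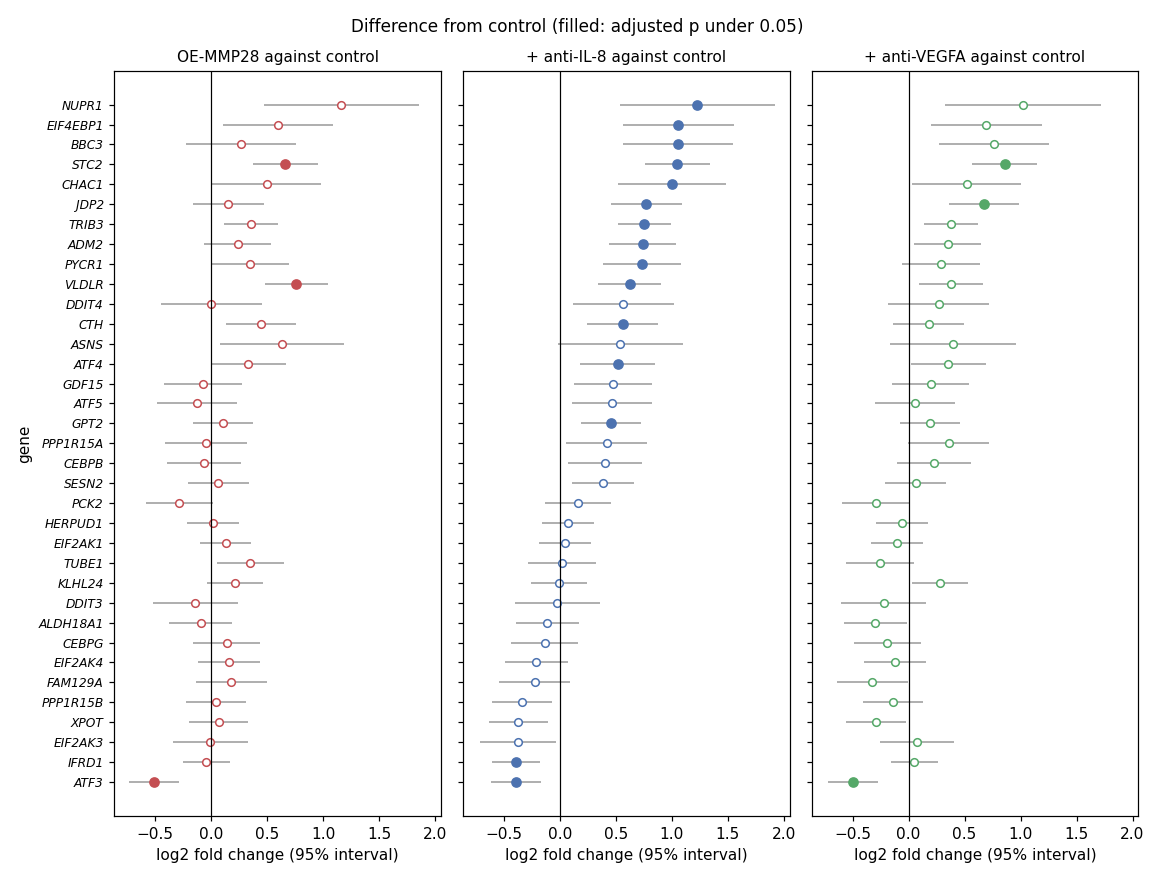
Points are log2 fold changes against control for the 35 genes in the OE-MMP28, anti-IL-8 and anti-VEGFA groups, lines are 95% intervals and filled points passed adjusted p 0.05. In the middle panel 15 points are filled, 13 to the right and 2 to the left of 0, and STC2 and ATF3 are filled in all 3 panels, STC2 to the right and ATF3 to the left of 0.

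The study asked what IL-8 and VEGFA from the cancer cells contribute, which is the comparison of each antibody with OE-MMP28 alone. None of the 35 genes passed for anti-IL-8 against OE-MMP28, beside 0% of all genes. At an unadjusted p under 0.05, 22 passed by the same edgeR test, beside 29.3% of all genes, and DESeq2 called 11 genes at adjusted p 0.05, beside 18.2%. With the mitochondrial share as a covariate 9 passed, beside 10.8% of all genes, and with no filter 8, beside 4.18%. Of the fits without 1 library, those without OE-MMP28 library 3 or anti-VEGFA library 2 made calls. Without OE-MMP28 library 3, 15 genes were higher and 5 lower at adjusted p 0.05, beside 25% of all genes, and the median log2 fold change of the 35 went from 0.12 to 0.38. Without anti-VEGFA library 2, 6 genes passed, beside 7.08% of all genes, and without both libraries 25 did, 17 higher and 8 lower, beside 31.6% of all genes. The genes higher with anti-IL-8 once library 3 was left out included JDP2, ADM2, TRIB3, BBC3, ATF5, GDF15 and STC2, and ATF4 was not among them. That library was the highest of its group for 22 of the 35 genes, compared with 38.7% of all genes. Without OE-MMP28 library 2, the lowest of its group for 21, compared with 39.5%, 0 passed, beside 0% of all genes. The median log2 fold change of the 35 was then 0.09.

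No member passed for anti-VEGFA against OE-MMP28 either, beside 0.343% of all genes. At an unadjusted p under 0.05, 7 genes passed by the edgeR test, JDP2 and PPP1R15A with higher values and 5 with lower, beside 18.8% of all genes, and DESeq2 called 1 gene, beside 3.09%. Without OE-MMP28 library 3, 3 were higher, BBC3, JDP2 and PPP1R15A, and 3 lower, FAM129A, TUBE1 and XPOT, at adjusted p 0.05, beside 8.48% of all genes. Both comparisons share the OE-MMP28 libraries. Compared directly, no gene of the set passed between anti-VEGFA and anti-IL-8, beside 0.199% of all genes, although 29 of the 35 had lower fitted values with anti-VEGFA and the median log2 fold change was -0.19, beside 0.02 for all genes. At an unadjusted p under 0.05, 10 genes passed by the edgeR test, beside 15% of all genes, and DESeq2 called 1 gene, beside 1.59%. The 95% interval of the log2 fold change was -0.50 to 0.17 for ATF4, and it lay to a single side of 0 for TRIB3, -0.62 to -0.14, and IFRD1, 0.23 to 0.66, before any adjustment.

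The count of called genes for anti-IL-8 against control also moved with single libraries, from 7 without control library 3, beside 8.48% of all genes, to 22 without OE-MMP28 library 2, beside 26.2%. It was 9 without control library 2, beside 8.13% of all genes, or anti-IL-8 library 1, beside 7.94%. TRIB3, VLDLR, STC2, JDP2, ADM2 and BBC3 were called in all 12 of these fits. How many of all genes were called in all 12 was not counted. For OE-MMP28 against control, 1 passed without control library 1 or 2 or OE-MMP28 library 1, beside 1.79%, 1.81% and 2.07% of all genes. The count was 6 without OE-MMP28 library 2, beside 3.12%. For anti-VEGFA against control it was 1 without control library 2, beside 4.02%. Without OE-MMP28 library 2 or 3 it was 7, beside 15.7% and 14.9%.

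The base composition of the libraries moved with the anti-IL-8 result. The median log2 difference from control was larger for genes of high GC content than for those of low GC content by 0.77, 0.48 and 0.82 in the anti-IL-8 libraries and by 0.53, 0.44 and 0.36 in the anti-VEGFA libraries. The OE-MMP28 libraries gave 0.05, -0.59 and 0.32. Genes with short transcripts were also higher relative to those with long ones by 0.47, 0.35 and 0.30 in the anti-IL-8 libraries, 0.43 in OE-MMP28 library 3 and 0.42 in anti-VEGFA library 2. The 13 genes that rose with anti-IL-8 had a median GC content of 56.7% in their longest transcript, the 2 that fell 43.1%, all 35 members 50.3% and all genes 48.3%. A fit with offsets for GC content and transcript length in each library, chosen after the data were seen, called 12 of the 35 genes for anti-IL-8 against control, 11 higher and 1 lower, beside 14.9% of all genes, and the median log2 fold change fell from 0.42 to 0.19, beside 0.05 for all genes. ATF4, GPT2, PYCR1 and IFRD1 no longer passed (adjusted p = 0.161, 0.054, 0.0571 and 0.69) and KLHL24 did (log2 fold change 0.40, adjusted p = 0.0194). STC2, VLDLR, JDP2, CTH and NUPR1 had larger fold changes with the offsets, at 1.09, 0.97, 0.82, 0.74 and 1.31 on the log2 scale, and TRIB3, ADM2, CHAC1, BBC3 and EIF4EBP1 smaller ones, from 0.44 to 0.66. With the same offsets 5 genes were called for OE-MMP28 against control, VLDLR, STC2, TRIB3, EIF4EBP1 and ATF3, beside 6.05% of all genes. For anti-VEGFA against control 6 were called, beside 11.4%, with STC2, VLDLR, JDP2 and KLHL24 higher and ATF3 and PCK2 lower. There the log2 fold change was 0.53 for VLDLR, 0.43 for KLHL24 and -0.56 for PCK2 (edgeR adjusted p = 0.00458, 0.014 and 0.00171). The part of base composition in these changes was not tested beyond this fit.

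**Figure D4:**
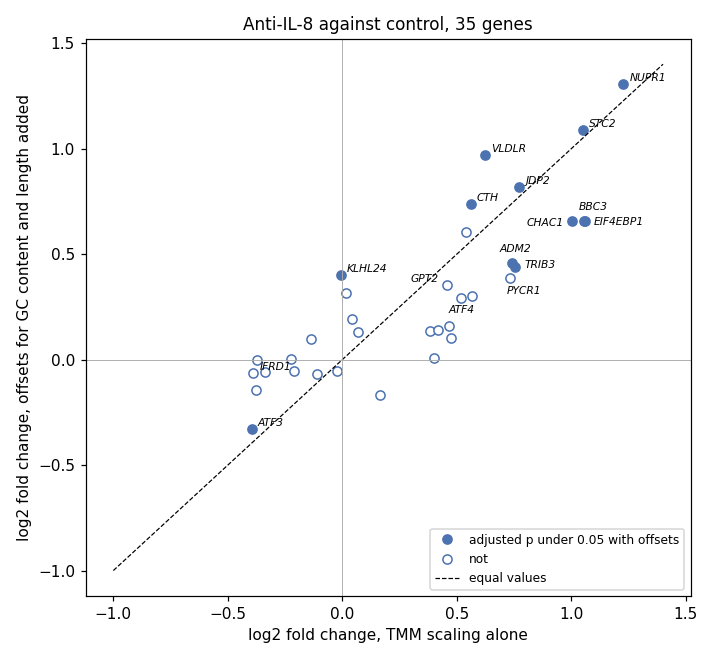
Each of the 35 points is a gene, with its log2 fold change between anti-IL-8 and control under TMM scaling on the horizontal axis and with offsets for GC content and transcript length on the vertical axis. Filled points pass adjusted p 0.05 with the offsets, the dashed line marks equal values, and IFRD1 moves from -0.39 to -0.07 while STC2 stays near the line.

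The gene groups that ATF4 also serves but that were left out of the set gave the following counts, to be read beside 0.523% of all genes higher in OE-MMP28, 9.77% higher and 10.9% lower with anti-IL-8 and 5.6% higher and 5.37% lower with anti-VEGFA. Of 20 aminoacyl-tRNA synthetases, which charge tRNA with amino acids, 2 were higher in OE-MMP28 than in control, SARS and MARS, with log2 fold changes of 0.53 ± 0.12 and 0.49 ± 0.12 (edgeR adjusted p = 0.0201 and 0.0294). With anti-IL-8, 7 of the 20 were higher and 1 lower than in control, and with anti-VEGFA 1 was higher, or 5%, close to the share of all genes. Of 10 amino acid transporters tested, SLC7A5, the large neutral amino acid transporter, was higher in OE-MMP28 (log2 fold change 0.59 ± 0.15, adjusted p = 0.0333), 4 were higher and 2 lower with anti-IL-8 and 1 was higher and 1 lower with anti-VEGFA. Of 7 serine and one-carbon genes, PHGDH, the first enzyme of serine synthesis, was higher in OE-MMP28 (log2 fold change 0.85 ± 0.17, adjusted p = 0.00734), 3 were higher for anti-IL-8 and 1 for anti-VEGFA. PHGDH went from a mean of 155 ± 22.8 CPM (SD, n = 3) in control to 281 ± 79.0 CPM in OE-MMP28, 377 ± 41.1 CPM with anti-IL-8 and 273 ± 19.8 CPM with anti-VEGFA. None of the 3 lists had a gene called between either antibody and OE-MMP28, beside 0% of all genes for anti-IL-8 and 0.343% for anti-VEGFA. With so few calls among all genes, these 2 comparisons cannot set the lists apart from other genes.

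The counts of neighboring stress pathways are read against the same shares, 3.16% of all genes called in OE-MMP28 and 20.7% called for anti-IL-8 against control. Of 20 genes of the XBP1 and ATF6 branches of the unfolded protein response, none was higher and 1 was lower in OE-MMP28 than in control, the disulfide isomerase PDIA4, with a log2 fold change of -0.70 ± 0.15 (edgeR adjusted p = 0.0133). With anti-IL-8, 2 of these were higher and 5 lower, or 35%, and their median log2 fold change of -0.13 stood beside 0.42 for the 35 ATF4 genes. Of 20 genes of the eIF2 machinery, which include the 4 kinases, EIF2AK2 alone was called in OE-MMP28, and 3 were higher and 5 lower with anti-IL-8, or 40%. Of 15 p53 target genes, none was called in OE-MMP28, and 2 were higher and 2 lower with anti-IL-8, or 26.7%. Of 14 other C/EBP and ATF family genes, none was called in OE-MMP28, and 3 were higher and 2 lower with anti-IL-8, or 35.7%. These lists were compared by their counts and medians alone, and the difference between lists was not tested.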

How the data were processed

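RNA from TAMs was sequenced in 12 libraries, 4 groups of 3, assigned from their labels alone. The authors deposited read counts per gene for 58735 genes of GENCODE 29 (GRCh38). HISAT2 2.0.5 and featureCounts 1.5.0-p3 are named in the submitters' processing notes, and the library kit does not mark strand. FPKM values, per length and depth, were also computed and deposited by the authors, in a way not given in the sources used here. Columns of the authors' comparisons (log2 fold changes with raw and adjusted p) were left unused.

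Counts were tested in R 4.3.3 with edgeR 4.0.16 after filterByExpr and TMM scaling. A quasi-likelihood fit of all 12 libraries, with 1 coefficient per group, gave 6 comparisons, adjusted by Benjamini-Hochberg over 16046 genes. Fold changes use a prior count of 2, CPM values of single genes the TMM-scaled library sizes, and intervals of 95% the estimate ± 1.96 SE. The summed CPM of marker genes and the CPM of 3 counts use library totals without TMM scaling. The fit was tested on simulated data. A value of 3 counts equals 0.160 to 0.189 CPM, depending on the library. No 2 libraries of a group were duplicates (chi-square per gene 6.46 to 98.6).

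The study's methods name limma at an unadjusted p under 0.05, given as an alternative threshold. Others were DESeq2 1.42.0, limma 3.58.1 (voom, and log2 of FPKM plus 1 or 0.1), library totals, other filters, a fit of the 2 groups alone, a replicate block, the mitochondrial share as covariate and leaving out each library. Offsets for GC content and transcript length, and leaving out OE-MMP28 library 3 with anti-VEGFA library 2, were added after the data were seen.

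The members and lists were chosen with earlier results of these data known. Values in every library are given for ATF4, the kinases and the 14 called members of smallest adjusted p. Genes outside the set are EIF2AK2 and those of the other lists, at most 3 per direction, that passed in OE-MMP28 against control. Promoter windows are those of RefSeq on GRCh38.p14.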

Additional observations from a re-analysis of the deposited data

How the results depend on the processing

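The alternative values for the 18 genes given in every library were sorted by threshold and direction. Of these, 87 newly passed the threshold and 56 no longer did. Another 19 turned direction by more than the SE of the main fit, none of these a called value. The other 2430 kept their side of the threshold, and any change of sign among them was within that SE. An example is EIF2AK3 in OE-MMP28 against control, at -0.0075 and, with the offsets, 0.016. Percentages in parentheses in what follows are the shares of all genes called under the same setting. The number of the 35 genes called for OE-MMP28 against control went from 3 to 5 with no filter (2.05%) or with offsets for GC content and length (6.05%). It was 9 at an unadjusted p (14.5%) and 1 to 6 when leaving out 1 library. For anti-IL-8 against OE-MMP28 it went from 0 to 11 with DESeq2 (18.2%), 8 with no filter (4.18%) and 9 with the mitochondrial covariate (10.8%). It was 25 without OE-MMP28 library 3 and anti-VEGFA library 2 (31.6%), 22 unadjusted (29.3%) and 0 to 20 without 1 library. The replicate block gave 2 there, GDF15 and JDP2, beside 4.95% of all genes, and 16 for anti-IL-8 against control, beside 21.5%, where it ended the call for ATF4, with the other counts as without it; the numbers do not pair the libraries, with 4 of 18 correlations over 0.1 and 7 highest with the own number. For anti-VEGFA against OE-MMP28 the count of 0 went to 1 with DESeq2 (3.09%) or the covariate (1.93%) and to 2 with no filter (1.16%). It was 8 without both libraries (8.02%), 7 unadjusted (18.8%) and 0 to 6 without 1 library. For anti-IL-8 against control 15 went to 24 in the fit of the 2 groups alone (39.8%), without both libraries (31.3%) or unadjusted (35.9%). The count fell to 12 with offsets (14.9%) and to 13 on FPKM with pseudocount 1 (17.2%) or with library totals (18.3%). It was 14 on FPKM with pseudocount 0.1 (17.1%) and 7 to 22 without 1 library. For anti-VEGFA against control 3 went to 6 with DESeq2 (13.1%), no filter (6.13%), the 2 groups alone (13.6%) or offsets (11.4%). It was 5 with the covariate (10.3%), 7 without both libraries (13.4%), 12 unadjusted (27%) and 1 to 7 without 1 library. Between the antibodies 0 went to 1 with DESeq2 (1.59%), 6 without both libraries (4.72%) and 10 unadjusted (15%), and was 0 without any 1 library. The share of all genes called shifted as well. For OE-MMP28 against control it went from 3.16% to 6.05% with the offsets and to 2.05% with no filter. For anti-IL-8 against OE-MMP28 it went from 0% to 18.2% with DESeq2. The cause of these shifts was not tested. Log2 fold changes that turned direction by more than the SE of the main fit are listed next. In OE-MMP28 against control this was BBC3, -0.13 without OE-MMP28 library 3 and -0.14 without both libraries (range without 1 library -0.13 to 0.59). For anti-IL-8 against OE-MMP28 with the offsets they were ATF4 -0.074, EIF2AK1 0.037, VLDLR 0.16 and PYCR1 -0.018. For anti-VEGFA against OE-MMP28 with the offsets they were ATF4 -0.17, TRIB3 -0.30, ADM2 -0.27, BBC3 -0.0047, EIF4EBP1 -0.34, CHAC1 -0.33 and GPT2 -0.066. In the same comparison without 1 library, PYCR1 was 0.12 and NUPR1 0.35 without OE-MMP28 library 3, EIF4EBP1 -0.18 without OE-MMP28 library 2, and EIF4EBP1 -0.19 and ATF4 -0.19 without anti-VEGFA library 2. Their ranges were -0.19 to 0.22 for ATF4, -0.19 to 0.52 for EIF4EBP1 and -0.54 to 0.35 for NUPR1. EIF2AK1 in anti-VEGFA against control was 0.013 with the offsets. ASNS and NUPR1, with as few as 17 and 28 counts in a library, are limited by depth.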
